A study of Danio rerio with 96 samples.

Results

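The region described here is 1 bisulfite amplicon on zebrafish chromosome 6, from 49743949 to 49744115 on the plus strand (1-based, in GRCz10, the build that the submitters' processing notes name). It was chosen with earlier results of these data known and is set by its position. Cytosines of that strand between both coordinates were looked up in the calls of all 96 libraries. A CpG was kept where at least 30 reads covered it in at least 48 libraries. This gave 5 CpGs of the 50 that were measured in 8 amplicons, and 94 of the 96 libraries had a value. No GRCz10 annotation was used here, so the gene at this position is not named.

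The samples were dissected larval heads, taken 5 days after fertilisation, and formed 4 groups of 24 libraries each. GR mutant larvae were kept in 100 µM betamethasone or in 0.2% ethanol as control, and wild-type larvae likewise. GR is the glucocorticoid receptor, and the labels give neither the mutant allele nor the vehicle of the betamethasone groups. GR mutant betamethasone library 3, with a mean of 5 reads per CpG, and wild-type betamethasone library 2, with 19 cytosine calls in the whole file, gave no value, which left 23 larvae in either betamethasone group and 24 in either control group. Nothing in the labels says which libraries share a clutch, a plate or a PCR run, so a p-value reflects the spread between libraries and nothing wider.

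Betamethasone is a synthetic glucocorticoid. Glucocorticoids enter cells and bind GR, a nuclear receptor that then binds DNA and changes the transcription of target genes, and in fish as in mammals this pathway carries the cortisol response to stress. CpG methylation is the addition of a methyl group to a cytosine that is followed by guanine. In vertebrates most CpGs outside CpG islands are methylated, and a regulatory region can differ in methylation between cell types, between individuals or between the 2 copies of a chromosome. Bisulfite turns unmethylated cytosine into a base read as T and leaves methylated cytosine as C, so the level of a CpG is the share of its reads with C.

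The amplicon is 167 bp long and lists 26 cytosines on the plus strand, 5 of them in CpGs. The deposited calls give each cytosine with its following base or bases, which fixes 52 of the 167 bases. The sequence is shown because the spacing of the CpGs is the scale of the linkage described below. It is written 5′ to 3′ with n for a base that the calls do not give and the 5 CpGs in capitals.

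chr6:49743949-49744115: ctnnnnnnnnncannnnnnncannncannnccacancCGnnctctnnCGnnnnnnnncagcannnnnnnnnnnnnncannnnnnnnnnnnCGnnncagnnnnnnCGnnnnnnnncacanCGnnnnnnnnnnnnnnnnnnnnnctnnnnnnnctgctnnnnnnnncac

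The CpGs stand at 49743986, 49743996, 49744039, 49744053 and 49744068, with gaps of 10, 43, 14 and 15 bp between neighbours. The first lies 37 bp after the first listed cytosine and the last lies 47 bp before the last one. The 21 other cytosines of the strand fell into 2 sets. At the ends, 3 cytosines up to 49743969 and 4 cytosines from 49744100 on were called methylated in only 0.00493% to 0.0110% of their reads, summed over all larvae. The first-round primers held 25 to 30 bp of amplicon-specific sequence, and a base inside a primer is read as the primer gives it; which cytosines the primers cover was not tested. The 14 cytosines between them had non-CpG levels of 0.607% to 3.74%, with a median of 1.72% and the highest value at 49743980. All 5 CpGs lie between these cytosines. Of the 14, 12 lie at least 30 bp from either end and were used for the non-CpG level of a larva.

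Depth was even in most larvae. The median over larvae was 8010 reads per CpG, 76 of 94 larvae had at least 7900, and none had more than 8033, so the deposited counts end near 8000. The shallowest larva used had 408 reads per CpG. The 95% Wilson half-width of a larva's level at the first CpG had a median of 1.01 and a maximum of 3.61 percentage points. Reads are PCR copies without molecular identifiers, made over 40 cycles from 100 pg of converted DNA, so these limits cover counting error only and say nothing of how many DNA molecules were sampled.

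The 4 groups had different shapes. GR mutant betamethasone larvae were spread over almost the whole scale, with larvae at both ends. GR mutant controls and wild-type betamethasone larvae lay mostly at intermediate levels. Wild-type controls stayed above 50% and fell into 2 separate sets. The larger one lay near 90%, and the smaller one held 7 larvae between 50.3% and 56.6%. The level of a larva in what follows is its methylated reads over all its reads, both summed over the 5 CpGs.

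**Figure D1:**
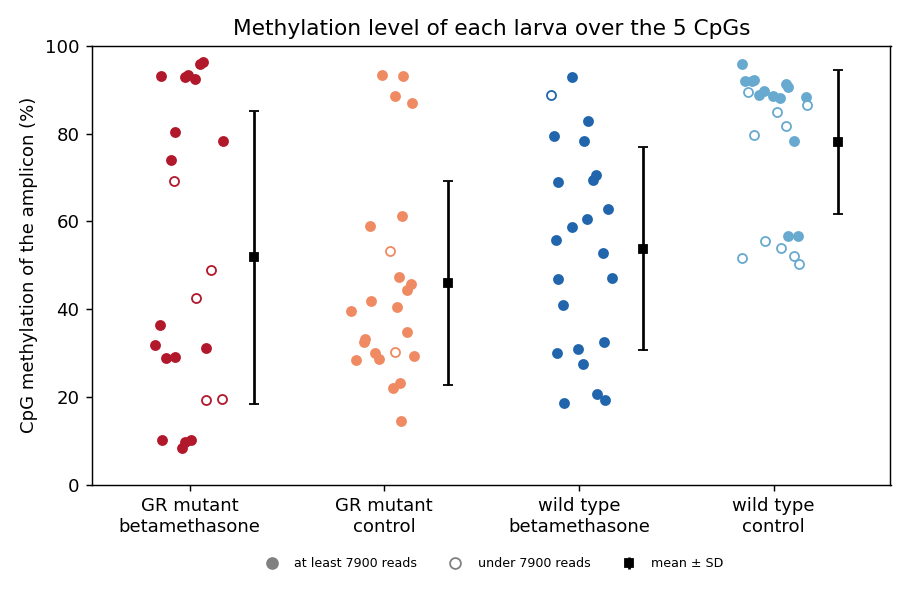
Methylation level of each larva (reads summed over the 5 CpGs, %) in the 4 groups. Filled points had at least 7900 reads per CpG, open points fewer, and black squares with bars are the mean ± SD of the group. GR mutant betamethasone larvae span 8.29% to 96.4%, while no wild-type control larva lies below 50.3% and none between 56.6% and 78.4%.

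In the GR mutant betamethasone group the lowest larva was at 8.29%, the median at 42.5% and the highest at 96.4%. Of its 23 larvae, 6 lay below 25%, 9 between 25% and 75%, and 8 above 75%. The group held the only larvae under 10%, which were 2, and 6 larvae above 90%. No larva lay between 49.0% and 69.2%, a gap of 20.2 percentage points with 13 larvae below it and 10 above.

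In GR mutant controls the lowest larva was at 14.5%, the median at 40.0% and the highest at 93.3%. Of 24 larvae, 17 lay between 25% and 75%, with 3 below and 4 above. Those 4 larvae, from 87.0% to 93.3%, stood apart from the next one down, at 61.3%.

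In wild-type betamethasone larvae the lowest level was 18.6%, the median 55.8% and the highest 93.0%. Of 23 larvae, 3 lay below 25%, 15 between the limits and 5 above 75%. No gap between neighbouring levels was wider than 8.57 percentage points, so this group ran through the scale without a break.

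In wild-type controls the lowest larva was at 50.3%, the median at 87.3% and the highest at 95.9%. None of 24 larvae lay below 25%, 7 lay between 25% and 75%, and 17 lay above. The 7 intermediate larvae were all between 50.3% and 56.6% (mean 53.8% ± 2.54, SD, n = 7) and the 17 others all between 78.4% and 95.9% (mean 88.1% ± 4.68, SD, n = 17). The gap between both sets was 21.7 percentage points, with no larva in it. The 7 lower larvae were linked by chains of matches, defined below, though not every pair of them matched. With matching larvae counted once, 13 wild-type controls were left, 1 between 25% and 75% and 12 above 75%, so the lower set was then a single value.

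These shapes were set beside fixed forms as a description, with no test. The bimodality coefficient, for which a uniform distribution gives 0.556, was 0.575 in GR mutant betamethasone larvae, 0.598 in GR mutant controls, 0.437 in wild-type betamethasone larvae and 0.738 in wild-type controls. Skew raises this coefficient as well as a second peak does. A beta distribution, whose density is highest at both ends of the scale where both shape values are under 1, gave 0.944 and 0.828 for GR mutant betamethasone larvae. The shape values were 1.79 and 1.92 for GR mutant controls, 2.25 and 1.91 for wild-type betamethasone larvae and 5.52 and 1.57 for wild-type controls. GR mutant betamethasone larvae were thus the only group of the 4 with a fitted density highest at both ends. Their 2 shape values are close to 1, where the density is flat, and no error is given for them. With matching larvae counted once, 18 larvae of this group were left. Of these, 3 lay below 25%, 9 between 25% and 75%, and 6 above 75%.

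An all-or-none pattern, with every larva close to 0% or 100%, was not seen in any group. Over all 94 larvae, 2 lay under 10% and 15 above 90%, while 22 lay between 40% and 60%. Of these 22, 2 were GR mutant betamethasone larvae, 7 GR mutant controls, 6 wild-type betamethasone larvae and 7 wild-type controls.

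What was close to uniform was the level along the amplicon within a larva. A larva that was high at 1 CpG was high at all 5, and a larva at an intermediate level was at that level at all 5. The difference between the highest and the lowest CpG of a larva had a median of 3.93 percentage points and ran from 0.773 to 7.97, and in 68 of 94 larvae it was under 5. Its median was 3.86 in GR mutant betamethasone larvae, 4.04 in GR mutant controls, 3.28 in wild-type betamethasone larvae and 4.42 in wild-type controls.

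**Figure D2:**
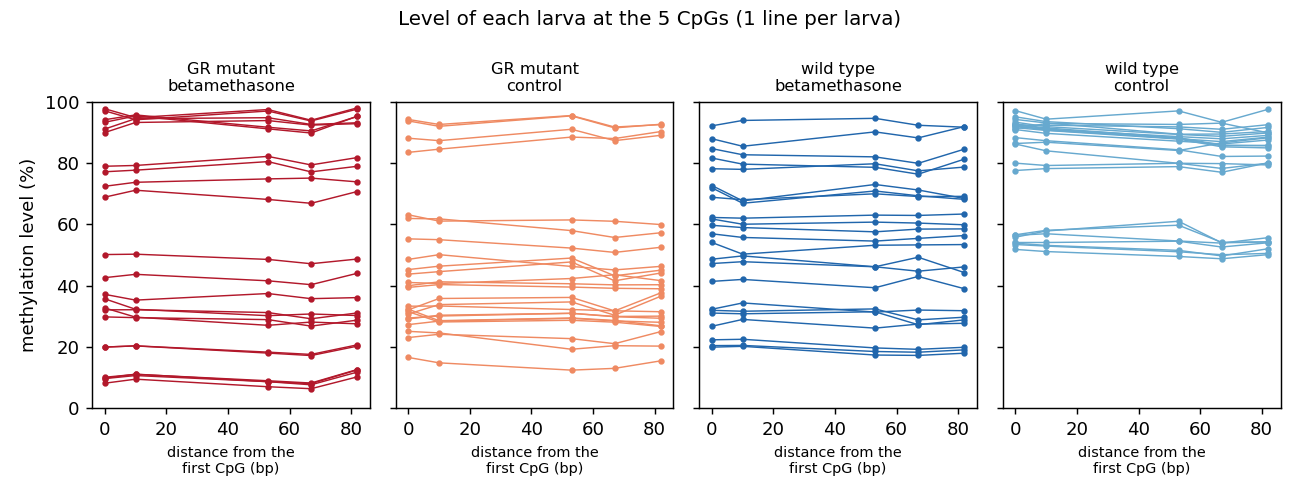
Methylation level (%) of each larva at the 5 CpGs against the distance from the first CpG (bp), with 1 line per larva and 1 panel per group. The lines run flat and mostly parallel at all heights, and no larva's CpGs differ by more than 7.97 percentage points.

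The lowest and the highest larva show how even the level was at either end. The lowest GR mutant betamethasone larva, number 12, lay between 6.41% and 10.3% at its 5 CpGs. The highest, number 20, lay at 98.0% at 49744068 and at 94.0% at 49744053. Neither larva had a CpG that stood apart from its other 4.

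Across larvae the CpGs moved together in each of the 4 groups. In wild-type betamethasone larvae, the group without a wide gap, Pearson's r between pairs of CpGs was 0.995 to 0.998 and Spearman's rho 0.992 to 0.999 (10 pairs, n = 23), and r stayed at 0.994 to 0.997 without the 2 larvae farthest from the median. The other groups were split at their widest gap, since larvae in separate sets raise a pooled r. Among GR mutant betamethasone larvae r was 0.986 to 0.998 in the 13 lower ones and 0.959 to 0.997 in the 10 upper ones. Among the 20 lower GR mutant controls r was 0.969 to 0.991; their 4 upper larvae were too few to be tested. In wild-type controls r was 0.818 to 0.979 in the 17 larvae of the upper set and 0.739 to 0.972 in the 7 of the lower set.

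In those sets all pairs of CpGs passed a two-sided permutation test (adjusted p between 1e-05, the smallest that 100000 resamples can give, and 0.00034), except in the lower set of wild-type controls, where 9 of 10 pairs passed an exact permutation test and the highest adjusted p was 0.0635. The adjustment was Benjamini-Hochberg over the pairs and groups. By rank, rho was at least 0.697 in each set and every pair passed (permutation tests, highest adjusted p = 0.0303). In the lower set of wild-type controls rho was 0.857 to 0.964. Of its 7 larvae, 5 had fewer than 7900 reads. These 7 larvae were linked by chains of matches, so no linkage is read from their r and rho. Without the 2 farthest larvae r was at least 0.727 in each set. The deposited calls hold counts per cytosine and not per read, so whether methylated calls of different CpGs lay on the same molecules was not measured.

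The levels of 2 CpGs differed little at any distance from 10 to 82 bp. Over all larvae together they differed less in near pairs than in far ones. The median absolute difference between the levels of a pair was 1.14 to 1.41 percentage points for all pairs 10 to 29 bp apart. It was 1.52 to 2.80 for all pairs 43 to 82 bp apart. Among these far pairs it did not rise with distance: at 82 bp, the widest spacing, it was 1.85, while the highest value, 2.80, belonged to the pair 57 bp apart. Not every group kept the order. Wild-type controls did, with at most 1.43 in near pairs and at least 2.28 in far ones. GR mutant betamethasone larvae had their largest median, 3.06, at 15 bp and their smallest, 1.05, at 72 bp. Distance was not told apart from which CpGs formed a pair.

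Small average differences between the CpGs remained, and they varied between larvae and between groups. Relative to the mean of the 5 CpGs of the same larva, 49744053 was lower by 1.31 ± 1.26 percentage points (SD, n = 94), in 80 of 94 larvae. At 49743986 the level was 0.803 ± 1.63 above that mean, in 60 of 94 larvae, and at 49743996 it was 0.564 ± 1.34 above it, in 66 of 94. These 3 offsets passed a two-sided sign-flip permutation test with Benjamini-Hochberg adjustment over the 5 CpGs (adjusted p = 2.5e-05, 2.5e-05 and 0.0003, where 1e-05 is the smallest unadjusted p). The offsets of 49744039, 0.0346, and 49744068, -0.0924, did not pass (adjusted p = 0.815 and 0.693). At 49744068 the offset averaged 0.896 in GR mutant betamethasone larvae and -0.848 in wild-type controls, so its mean over all larvae hides opposite signs. All are small beside the differences between larvae.

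The same measures set this region apart from the other amplicons. It was chosen with earlier results of these data known, so these comparisons and their p-values describe it and are no independent support. Within groups, 99.7% of the variance of its CpGs was shared by all CpGs of the amplicon, against 20.3% to 65.4% in the 7 others. Depth differs between amplicons and counting error lowers this share where depth is low, so tests were made only against the 2 others with a median of at least 5000 reads. They were chromosome 15 from 4079178 to 4079402, with 13 CpGs, and chromosome 6 from 41099247 to 41099469, with 4 CpGs.

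**Figure D3:**
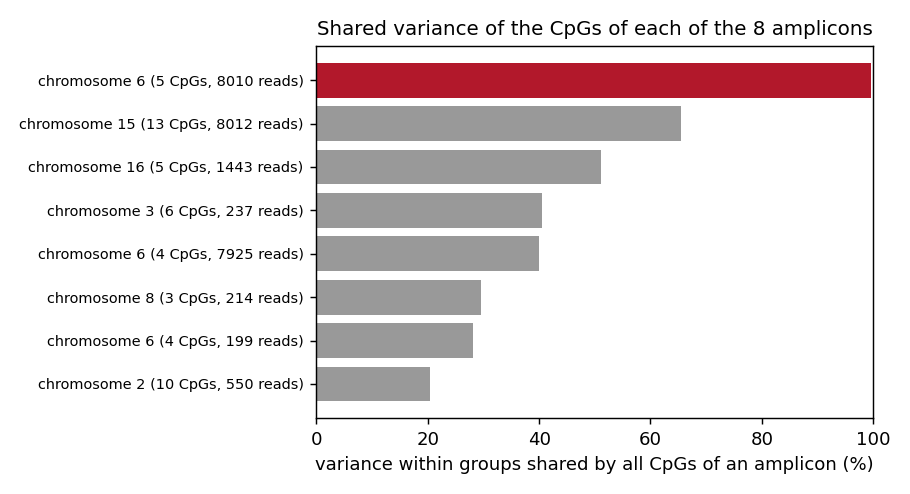
Share of the variance within groups (%) that all CpGs of an amplicon have in common, for each of the 8 amplicons with its number of CpGs and median reads per CpG; the amplicon described here is in red. It stands at 99.7%, and the next at 65.4%.

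After the larva's mean and each CpG's group mean were removed, the residual SD over the CpGs of a larva averaged 1.38 ± 0.609 percentage points here, against 11.6 ± 5.74 in the chromosome 15 amplicon and 5.59 ± 3.26 in the other chromosome 6 amplicon (SD, n = 94). It was lower here in 94 of 94 and in 90 of 94 larvae (two-sided sign-flip permutation tests, adjusted p = 1e-05 for both, the smallest they can give). The distance of a larva from its group median ran the other way. It averaged 19.5 ± 16.1 percentage points here, against 13.4 ± 11.1 on chromosome 15 (adjusted p = 0.00179) and 3.28 ± 3.29 at the other chromosome 6 amplicon (adjusted p = 2e-05). The distance was shorter here in 41 of 94 larvae beside chromosome 15 (medians 13.7 here and 10.9 there) and in 13 of 94 beside the other chromosome 6 amplicon. On average larvae were therefore farther apart here than in either of the other deep amplicons, though not in each larva. The CpGs of a larva were closer together. Whether larvae high here were also high elsewhere was tested against the 7 other amplicons within each group. None of the 28 relations passed (permutation tests, lowest adjusted p = 0.394 for Pearson's r and 0.554 for Spearman's rho), and 3 had an unadjusted p under 0.05 for r. No r is given, since larvae of some groups lie in separate sets.

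**Figure D4:**
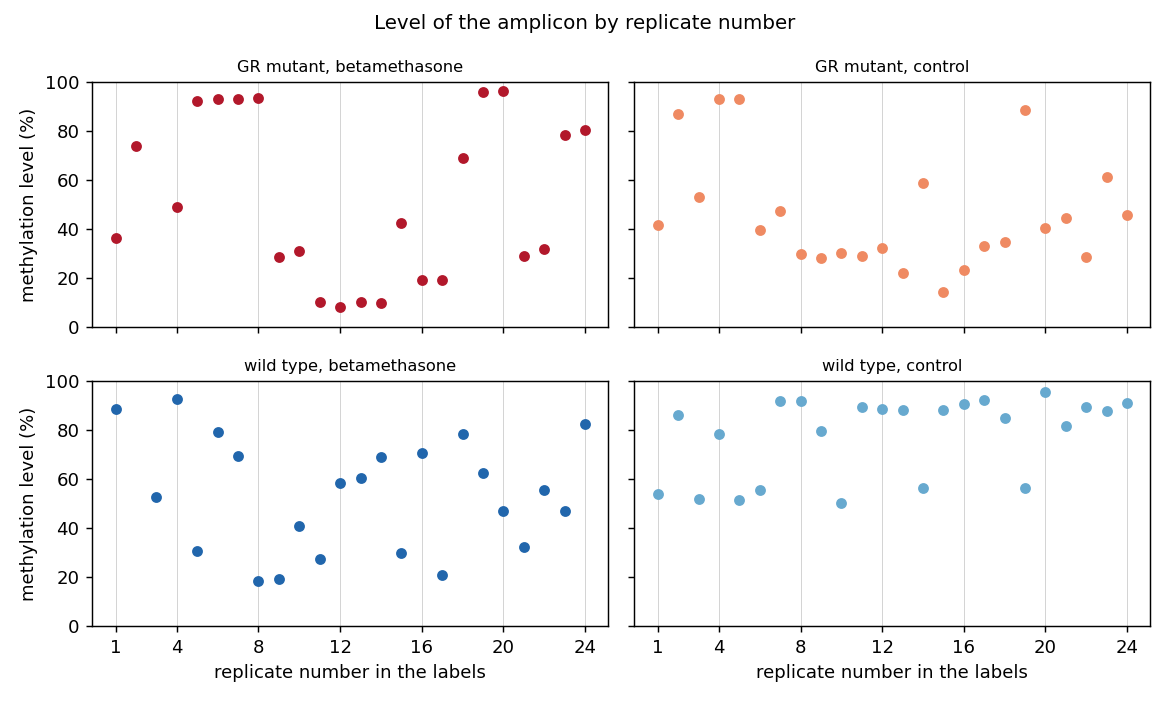
Level of the amplicon (%) against the replicate number in the labels, 1 panel per group. In GR mutant betamethasone larvae neighbouring numbers often have like levels, such as 4 larvae near 93% at numbers 5 to 8 and 4 larvae near 10% at numbers 11 to 14.

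Neighbouring replicate numbers often had like levels in GR mutant betamethasone larvae, and less often in GR mutant controls. In both wild-type groups the share of like neighbours was about that of all pairs. This count does not cover likeness between numbers farther apart. In the GR mutant betamethasone group, larvae 5 to 8 had 92.5%, 93.2%, 93.0% and 93.5%, and larvae 11 to 14 had 10.1%, 8.29%, 10.2% and 9.73%. Larvae 16 and 17 had 19.2% and 19.4%, and larvae 19 and 20 had 95.9% and 96.4%. The extreme levels of this group thus came in runs. Over its 21 pairs of neighbouring numbers the median difference was 2.81 percentage points, against 35.8 over all 253 pairs of the group, and 11 of 21 neighbours (52.4%) lay within 5 points of each other, against 12.6% of all pairs. In GR mutant controls 7 of 23 neighbours (30.4%) lay that close, against 15.2% of all pairs, in wild-type betamethasone larvae 2 of 21 (9.52%), against 9.09%, and in wild-type controls 8 of 23 (34.8%), against 35.1%. Medians for neighbours and for all pairs were 15.5 and 18.0 in GR mutant controls, 23.4 and 23.9 in wild-type betamethasone larvae and 14.2 and 10.3 in wild-type controls. What the numbers stand for is not given in the sources used here, and their part in the levels was not tested.

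Some larvae matched each other at this amplicon, defined as a mean chi-square per CpG under 4 with at least 500 reads at each CpG. This limit allows more than counting error alone, and shallow pairs pass it more easily. Where matches were counted once, larvae were joined through chains of matches. Pairs outside the limit stayed separate, so counting once need not remove all likeness between larvae. Of 88 pairs with neighbouring numbers in 1 group, 10 matched (11.4%). Other pairs of 1 group matched in 26 of 948 cases (2.74%), and larvae of different groups matched in 48 of 3242 cases (1.48%). Neighbouring and other matching pairs numbered 4 and 2 in GR mutant betamethasone larvae and 3 and 4 in GR mutant controls. They numbered 1 and 2 in wild-type betamethasone larvae and 2 and 18 in wild-type controls. The 12 non-CpG cytosines matched as well in 9 of the 10 neighbouring pairs and in 22 of the 26 others of 1 group. Whatever their CpGs, they matched in 22.7% of neighbouring and 7.17% of other pairs of 1 group. Between groups they matched as well in 13 of the 48 pairs, against 1.36% of pairs of different groups whatever their CpGs. What lies behind the matches was not tested. Most matching pairs within groups differed at the other deep amplicons. On chromosome 15, 2 of 35 matched there too (5.71%), against 14 of all 968 pairs within groups (1.45%), and at the other chromosome 6 amplicon 4 of 29 did (13.8%), against 32 of 931 (3.44%). All larvae were kept, and the differences in level, spread and class, the linkage and the offsets were repeated with matching larvae of a group counted once, which left 18 GR mutant betamethasone larvae, 17 GR mutant controls, 20 wild-type betamethasone larvae and 13 wild-type controls.

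Among wild types, the betamethasone larvae were lower, and fewer of them lay in the upper class. The control median of 87.3% was above 21 of the 23 betamethasone larvae, and 10 of them lay below the lowest control. The difference of group means was -24.3 percentage points (SE 5.88, adjusted p = 0.000529 by beta-binomial regression with a likelihood ratio test, Benjamini-Hochberg over the 8 amplicons, of which 37.5% were called). Larvae above 75% numbered 5 of 23 with betamethasone and 17 of 24 without it (Fisher's exact test, adjusted p = 0.00474 over 8 class tests). Larvae below 25% numbered 3 of 23 and 0 of 24 (adjusted p = 0.291). With matching larvae counted once the difference was -30.0 (adjusted p = 0.000756).

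Each of the 5 CpGs was called lower, where 22% of the 50 CpGs were called in either direction and 16% were called lower. At 49743986 the level averaged 54.6% ± 23.1 with betamethasone and 79.9% ± 17.1 in controls (SD, n = 23 and 24), and at 49744053 it averaged 53.1% ± 23.2 and 76.3% ± 16.5. The 5 differences ran from -25.4 to -23.1 with a median of -24.1, beside a median of -0.03 over the 50 CpGs. Since the CpGs of a larva move as 1, their 5 calls do not count as 5 separate results.

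GR mutant controls were lower than wild-type controls in the same way. Only 3 of the 24 mutants lay above the wild-type median, and 17 lay below the lowest wild-type larva. The means differed by -32.2 percentage points (SE 5.82, adjusted p = 3.37e-05, with 37.5% of the 8 amplicons called). Above 75% lay 4 of 24 mutants and 17 of 24 wild types (Fisher's exact test, adjusted p = 0.00284), and below 25% lay 3 and 0 (adjusted p = 0.374). All 5 CpGs were called lower, where 36% of the 50 CpGs were called in either direction and 14% were called lower, with differences of -33.6 to -31.4 and a median of -31.6 against 3.38 over all CpGs. Levels at 49744039, for example, averaged 46.5% ± 24.1 in mutants and 77.9% ± 15.9 in wild types (SD, n = 24 each). Both comparisons rest on the same wild-type controls, so their 2 differences are not independent of each other.

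Among GR mutants, the levels of betamethasone and control larvae overlapped, and betamethasone larvae reached farther at both ends. The control median had 11 of the 23 betamethasone larvae below it and 12 above it, while 4 lay below the lowest and 3 above the highest control. The means differed by 5.94 percentage points (SE 8.43, adjusted p = 0.652, with 0% of the amplicons called). None of the 5 CpGs was called, beside 2% of the 50 CpGs, and none had an unadjusted p under 0.05 by the same regression. Neither class passed the test: 8 of 23 and 4 of 24 larvae lay above 75% (adjusted p = 0.374), and 6 of 23 and 3 of 24 below 25% (Fisher's exact tests, adjusted p = 0.382).

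With betamethasone, the level averaged 51.8% ± 33.4 in GR mutants and 53.8% ± 23.2 in wild types (SD, n = 23 each), a difference of -1.95 percentage points (SE 8.47, adjusted p = 0.965, with 25% of the amplicons called). Of 23 mutants, 4 lay below the lowest wild-type larva and 5 above the highest. None of the 5 CpGs was called, beside 10% of the 50 CpGs.

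The betamethasone difference was 30.3 percentage points higher in GR mutants than in wild types (SE 10.3, adjusted p = 0.0205 for the interaction on the logit scale, n = 94, with 37.5% of the amplicons called). Per CpG the value ran from 28.7 at 49744053 to 31.6 at 49743996. After adjustment over the 50 CpGs, 3 of the 5 passed (49743986, 49743996 and 49744068, adjusted p = 0.0401 each) and the other 2 did not (adjusted p = 0.0756 each), beside 14% of all CpGs called. The interaction was no longer called when runs of 4 neighbouring numbers were averaged to 6 values per group (29.3, adjusted p = 0.119) or when libraries above 2% non-CpG methylation were left out (29.9, adjusted p = 0.0527).

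Spread between larvae was tested apart from the level. The mean distance from the group median was 29.6 percentage points in GR mutant betamethasone larvae and 17.1 in GR mutant controls, and 19.4 in wild-type betamethasone larvae and 12.5 in wild-type controls. The mutant difference had p = 0.0143 and an adjusted p of 0.0572 over the 8 amplicons, of which 12.5% were called (two-sided permutation test). The wild-type difference had an adjusted p of 0.283, with 0% called. Between genotypes the adjusted p was 0.508 for the control groups (12.5% called) and 0.160 for the betamethasone groups (0% called). No difference in spread was therefore called at this amplicon, although the mutant betamethasone group had the widest SD, 33.4, beside 23.3, 23.2 and 16.5 in GR mutant controls, wild-type betamethasone larvae and wild-type controls.

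**Figure D5:**
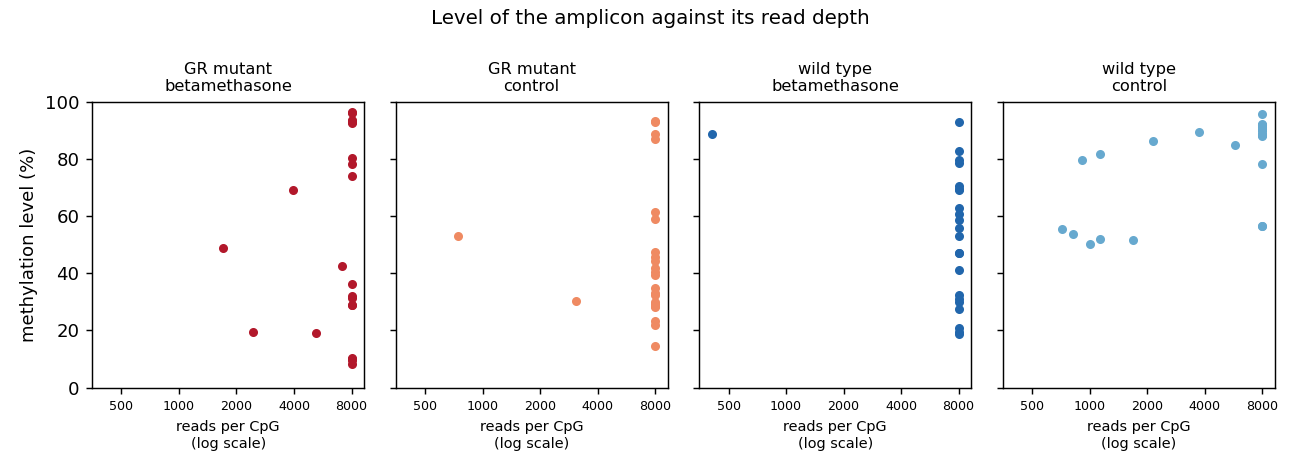
Level of the amplicon (%) against its mean reads per CpG (log scale), 1 panel per group. Most larvae stand at about 8000 reads over the whole range of levels, while 10 of 24 wild-type controls had fewer than 7900 and 5 of the 7 in their lower set are among these.

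Depth moved with the level among wild-type controls. Pearson's r between level and log10 depth passed in this group (permutation test, adjusted p = 0.0172), while Spearman's rho did not (adjusted p = 0.0784). The separate sets of this group enter that r together. Neither measure passed in any other group. Of the 7 in the lower set, 5 had under 7900 reads per CpG (median 1130 over the 7), whereas 12 of the 17 in the upper set had at least 7900 (median 8007). Controls under 7900 reads averaged 68.6% ± 17.0 (SD, n = 10) and the deeper ones 84.9% ± 12.6 (SD, n = 14). The deep larvae also hold 2 of the lower set, at 56.6% each. In the other groups 5 of 23 GR mutant betamethasone larvae, 2 of 24 GR mutant controls and 1 of 23 wild-type betamethasone larvae were under 7900 reads. The shallowest GR mutant control (741 reads) was at 53.2% and the shallowest GR mutant betamethasone larva (1699 reads) at 49.0%, both near the lower set. The shallowest wild-type betamethasone larva (408 reads) was at 88.8%. The part of depth in the lower set was not tested. Without all larvae under 7900 reads, a choice made after seeing the data, the wild-type betamethasone difference was -32.8 (adjusted p = 4.62e-05) and the difference of the control groups -38.7 (adjusted p = 6.16e-05). The interaction was then 41.6 (adjusted p = 0.0107). The spread was then called wider in betamethasone than in control GR mutants (by 15.9 percentage points, permutation test, adjusted p = 0.00668), in betamethasone than in control wild types (11.7, adjusted p = 0.0371) and in GR mutants than in wild types with betamethasone (14.6, adjusted p = 0.00184). With matching larvae counted once instead, the first was 8.89 (adjusted p = 0.204), the second 12.5 (adjusted p = 0.0302) and the third 8.66 (adjusted p = 0.367).

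Non-CpG methylation of the 12 inner cytosines, which includes incomplete conversion, covered a narrow range beside the CpG levels. Its group median was 2.57% in GR mutant betamethasone larvae, 1.02% in GR mutant controls, 1.57% in wild-type betamethasone larvae and 2.02% in wild-type controls, and no larva had more than 3.74%. The 4 lowest larvae of the series, GR mutant betamethasone 11 to 14, had non-CpG levels of 3.47% to 3.72% beside CpG levels of 8.29% to 10.2%. Without libraries above 2% non-CpG methylation the wild-type betamethasone difference was -27.4 (adjusted p = 0.000543) and that of the control groups -29.2 (adjusted p = 0.00474). Within each group the level was also set against the non-CpG level of the amplicon and of the library. No such relation passed (permutation tests, adjusted over 12 relations that include depth). The lowest adjusted p was 0.129 for Pearson's r and 0.117 for Spearman's rho, both for the amplicon in wild-type controls. The part of conversion in the CpG levels was not tested otherwise.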

How the data were processed

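DNA methylation was measured by bisulfite amplicon sequencing (BisPCR2) as 150 bp read pairs in 96 larval head libraries. The tools named in the submitters' processing notes are BS-Seeker2, cutadapt and FastQC, with GRCz10 as the build; no versions, settings or read filters are given there. For each library the authors deposited, per cytosine, the methylation level as a fraction with 2 decimals and the counts of methylated and of all reads. Only the deposited counts were used. Reads end near 8000 per cytosine, and depth at this amplicon ran from 408 to 8033 reads in the larvae used.

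A level is methylated reads over all reads, as a percent, for CpGs with at least 30 reads. Amplicons were runs of cytosines no more than 100 bp apart with that depth in at least 48 libraries, and 1 region without a CpG was left out. Group differences were tested by beta-binomial regression, each larva being 1 observation, over all 8 amplicons or all 50 CpGs with at least 10 larvae per group, with Benjamini-Hochberg adjustment and a threshold of 0.05. Spread, linkage and offsets were tested by permutation with 100000 resamples. For linkage in a set of 7 larvae all orders were used instead. Classes were tested by Fisher's exact test, and all tests were two-sided. Non-CpG levels of larvae and libraries were taken at least 30 bp from the amplicon ends. Alternatives were a minimum of 10, 100 or 1000 reads, other tests, class limits of 20% and 80% or 30% and 70%, leaving out each CpG, a block on the replicate number, libraries above 2% non-CpG methylation left out, matching larvae counted once and run means; 2 on depth were added after seeing the data. All 5 CpGs are named by rule. The region and these lists were chosen with earlier results of these data known. Tests used scipy 1.17.1 and numpy 2.4.6 in Python 3.11.15, tables pandas 2.3.3 and figures matplotlib 3.10.9.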

Additional observations from a re-analysis of the deposited data

Results flagged for a closer look

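The betamethasone difference itself differed between the genotypes at this amplicon. In GR mutants it was 5.94 percentage points and in wild types -24.3, so the value in GR mutants minus that in wild types was 30.3 (interaction of the beta-binomial regression, adjusted p = 0.0205 over the 8 amplicons, n = 94). The same difference passed at 3 of the 5 CpGs, at 31.2 for 49743986, 31.6 for 49743996 and 30.7 for 49744068 (adjusted p = 0.0401 each over the 50 CpGs). All 4 values come from 1 set of reads per larva. The GR mutant betamethasone larvae that enter them lie in runs of neighbouring replicate numbers, and 10 of the 24 wild-type controls had under 7900 reads; the part of either in the interaction was measured only through the alternatives given with it.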

How the results depend on the processing

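Over 16 alternatives the wild-type betamethasone difference (-32.8 to -23.3 percentage points) and that between control groups (-38.8 to -29.2) kept direction and call, and all 5 CpGs stayed called in the 8 run per CpG. Minimums of 10 and 100 reads kept the same larvae, as none used had under 408 reads, so they could not change these values. Leaving out 1 CpG could change little, since the 5 move together. With run means the adjusted p was 0.0346 in wild types and 0.0260 between control groups (exact permutation tests). The larvae above 75% in these 2 comparisons, the linkage and the offsets, where 3 CpGs were called each time, also kept their calls. The interaction was weaker at 29.9 (libraries above 2% non-CpG methylation left out) and 29.3 (run means). Its count of 3 called CpGs fell to 0 at a minimum of 10 reads and without libraries above 2% non-CpG methylation. At 10 reads the larvae and the values of the 5 CpGs were those of the main setting, so only the adjustment over all CpGs tested differed. The count was 5 at 1000 reads, by the quasi-binomial and the permutation test, under a block on the replicate number and without larvae under 7900 reads. The cause of the other changes was not tested. The replicate block moved no other count of calls. Same-numbered larvae had a median correlation of -0.00887, beside -0.00500 for other numbers. They correlated by more than 0.1 in 56 of 138 pairs, and 7 correlated best with their own number. No such share is given for other numbers, so no pairing is read from these counts. Whether larvae of 1 number share a batch was not tested beyond this.

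The difference between genotypes with betamethasone, -1.95 and not called, changed sign with the quasi-binomial test (0.956), without libraries above 2% non-CpG methylation (0.674) and without larvae under 7900 reads (2.97), and was called in none of them. At CpGs in the order of position it was 0.357, 1.26, 0.842, 0.0324 and 2.28 by the quasi-binomial test, and 2.36, 3.16, 2.97, 2.12 and 4.26 without larvae under 7900 reads. It was 0.192, 1.03, 0.697 and 1.64 at 49743986, 49743996, 49744039 and 49744068 without libraries above 2%, and 0.0334 at 49743996 and 0.977 at 49744068 at 1000 reads.

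Spread depended most on the settings. Betamethasone against control in GR mutants was called at 100 reads (12.6), at 1000 reads (12.4) and with deviations from the mean (12.3). The call was also made on the logit scale (0.777) and without larvae under 7900 reads (15.9). No call was made at 10 reads (12.6), without libraries above 2% non-CpG methylation (10.9) or with matching larvae counted once (8.89). At 10 and 100 reads the larvae and the value here were those of the main setting, so only the adjustment over the amplicons differed. In wild types it was called at 1000 reads (9.49), with matching larvae counted once (12.5) and without larvae under 7900 reads (11.7). The wild-type difference was not called at 10 or 100 reads (6.93 each) or with deviations from the mean (5.31). Nor was it called on the logit scale (0.120) or among libraries of at most 2% non-CpG methylation (6.22). GR mutants against wild types with betamethasone was called at 1000 reads (10.8) and with deviations from the mean (10.8). It was also called without larvae under 7900 reads (14.6). It was not called at 10 or 100 reads (10.2 each) or with matching larvae counted once (8.66). The logit scale (0.711) and libraries of at most 2% non-CpG methylation (9.77) gave no call either. With class limits of 30% and 70% the low class was called in wild types with betamethasone (21.7 percentage points more larvae) and in GR mutant controls (29.2). With matching larvae counted once its difference in GR mutants was -0.98. The cause of the other changes was not tested. Depth near 8000 reads leaves counting error small, but the number of DNA molecules behind the reads is unknown.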
